A study of Homo sapiens with 8 samples.

Results

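RNA levels of 9 genes of the NRF2 and thioredoxin redox system, NQO1, HMOX1, GCLC, GCLM, TXNRD1, TXN, TXNIP, SRXN1 and AKR1B10, were examined in the colorectal cancer cell line DLD1. The genes were picked by name, and every non-control probe carrying such a name was taken, which gave 10 of the 50599 probes, 1 for each gene and 2 for AKR1B10. DLD1 cells, an established colon adenocarcinoma line, received control siRNA (siCONT) or siRNA against UHRF1 (siUHRF1-1 or siUHRF1-2), and 48 h later ethanol (mock) or 300 nM trichostatin A (TSA) for a further 24 h. UHRF1 guides the maintenance DNA methyltransferase to newly copied DNA, and TSA inhibits histone deacetylases (HDACs). Of the 8 one-colour Agilent arrays, 2 fell in each of the 4 groups, which are given below in the order siCONT under mock, depletion under mock, siCONT under TSA and depletion under TSA. In a UHRF1 depletion group each array carried a different siRNA, so that the spread within the group was that between siRNAs, in transiently transfected cells of 1 line. All cells had been transfected, and no untransfected or untreated cells were among the arrays.

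NRF2 is a transcription factor that is held back by KEAP1 and degraded in resting cells. Oxidants and electrophiles release it, and it then binds, together with small MAF proteins, to antioxidant response elements near genes for glutathione synthesis, quinone detoxification and thioredoxin recycling, while BACH1 competes for the same elements and represses HMOX1 in particular. In the thioredoxin system TXN reduces oxidised proteins, TXNRD1 recycles TXN with NADPH, SRXN1 repairs peroxiredoxins that were oxidised too far, and TXNIP binds and inhibits TXN. In colon cells this system handles reactive compounds from the lumen and from metabolism, and many tumours keep it active.

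The probes are shown first where their letters bear on what was measured. Those for TXN and TXNRD1 lay in coding sequence and are printed whole, 5′ to 3′, in the sense of the transcript.
TXN probe: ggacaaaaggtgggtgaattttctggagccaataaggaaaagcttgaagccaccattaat
TXNRD1 probe: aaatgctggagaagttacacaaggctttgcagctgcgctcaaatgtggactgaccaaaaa
The TXN probe was placed on chromosome 9, 113006449 to 113007066 (hg19, minus strand), a span of 618 bases for 60 bases of probe, so that it crossed at least 1 intron. The TXNRD1 probe was placed on chromosome 12, 104732949 to 104733008 (plus strand). The GCLM probe (chromosome 1, 94352810 to 94352869, minus strand) shared a run of 18 bases with 6 other probes of the array, and none of the other members' probes shared one. The part of such RNA in the GCLM signal was not tested. The remaining probes lay on chromosome 16 at 69744274 to 69744333 (NQO1), chromosome 22 at 35790122 to 35790181 (HMOX1), chromosome 6 at 53362197 to 53362256 (GCLC), chromosome 1 at 145442447 to 145442506 (TXNIP), chromosome 20 at 627563 to 627622 (SRXN1) and chromosome 7 at 134225939 to 134225998 and 134225799 to 134225858 (AKR1B10).

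Promoter windows, 250 bases before to 50 bases after a transcript start, were matched by symbol for 7 of the 9 genes in RefSeq (GRCh38.p14), with 9 windows in all. HMOX1 and AKR1B10 had no entry. The core letters of the antioxidant response element, TGACNNNGC on either strand, stood in 13.3% of all 35116 windows. They were present in windows of 2 members, GCLM and TXNRD1. The bases before the start are printed in the direction of transcription for these 2 genes, with the core in capitals, and for SRXN1, whose window lacks the core and whose change with TSA was the largest of the 9 genes.
TXNRD1, first window, chr12:104215529-104215779 (GRCh38.p14, plus strand): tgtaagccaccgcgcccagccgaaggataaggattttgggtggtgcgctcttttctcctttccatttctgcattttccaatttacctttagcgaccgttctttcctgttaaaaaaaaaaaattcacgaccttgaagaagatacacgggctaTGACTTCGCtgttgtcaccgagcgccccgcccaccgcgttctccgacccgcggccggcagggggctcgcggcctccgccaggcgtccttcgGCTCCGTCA
TXNRD1, second window, chr12:104286782-104287031 (plus strand): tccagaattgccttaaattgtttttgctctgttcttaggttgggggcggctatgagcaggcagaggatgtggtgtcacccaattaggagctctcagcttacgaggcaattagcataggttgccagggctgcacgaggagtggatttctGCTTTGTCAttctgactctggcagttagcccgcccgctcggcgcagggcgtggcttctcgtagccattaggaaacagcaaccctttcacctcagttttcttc
GCLM, chr1:93909431-93909680 (minus strand): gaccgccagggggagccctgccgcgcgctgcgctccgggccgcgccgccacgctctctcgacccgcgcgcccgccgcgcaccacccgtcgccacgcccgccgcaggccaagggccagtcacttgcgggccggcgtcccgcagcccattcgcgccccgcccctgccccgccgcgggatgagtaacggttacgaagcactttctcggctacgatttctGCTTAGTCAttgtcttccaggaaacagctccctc
SRXN1, chr20:653201-653450 (minus strand): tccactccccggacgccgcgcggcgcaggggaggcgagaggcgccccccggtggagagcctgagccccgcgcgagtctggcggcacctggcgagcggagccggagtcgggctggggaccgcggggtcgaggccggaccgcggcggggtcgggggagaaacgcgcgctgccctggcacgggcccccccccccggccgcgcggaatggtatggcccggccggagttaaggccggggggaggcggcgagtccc
The core began 99 bases before the first TXNRD1 start, and a second match on the other strand began 8 bases before it and ran over the start. In the second TXNRD1 window it began 102 bases before the start and in GCLM 34 bases before it, both on the other strand. The letters CACGTG, a form of the E-box, stood in 7.3% of all windows and in none of the members'. Other forms of the E-box were not searched, so the absence of these letters from the TXNIP windows says nothing of such forms. A match is a description of the letters, and a window without one says nothing of sites elsewhere.

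The arrays were alike in quality: background was clearly exceeded by 43.3% to 48.0% of the probes, and no spot was saturated. All 10 member probes were well above background on all 8 arrays. A level is given below as the log2 of the intensity over the 75th percentile of its array, so that 0 is the intensity below which 75% of the probes lay, and a difference of 1 is 2-fold. Levels of different genes come from different probes and were not set against each other. The siCONT arrays differed from each other by 1.16 (mock) and 1.08 (TSA) times the noise expected from repeated spots, against 12.5 and 10.3 times for the siUHRF1 arrays. Each siCONT pair is therefore given without an SD. The main fit still counted all 8 arrays as separate samples. Its SEs, intervals and calls are those given below and in the figures unless stated otherwise, and they may be too narrow or too many. A second fit, named the averaged fit here, took the mean of each such pair as 1 sample, so that its spread came from the siRNA pairs alone and the lone siCONT samples were assumed to vary like them. Its adjusted p is given after that of the fit to all 8 arrays. UHRF1, the targeted gene, had levels on its brighter probe of 1.98 and 2.01 in siCONT with mock and 0.34 and −0.02 after depletion. They were 1.04 and 1.01 in siCONT with TSA and −1.55 and −2.14 with both. The siRNAs thus left 31.9% and 24.8% of this signal under mock and 16.7% and 11.1% under TSA. On the other UHRF1 probe they left 32.9% and 28.6% under mock and 29.7% and 13.1% under TSA. All 10 colonic epithelial markers were well above background on every array. Markers of other cell types moved with the treatments at low levels: the summed linear level of 5 fibroblast genes, in units of the 75th percentile, was 0.104 to 0.135 in siCONT with mock and 0.613 to 1.28 with both treatments, with COL1A2 and COL3A1 well above background on no array. For 3 endothelial genes it was 0.147 to 0.175 and 1.59 to 1.71, with PECAM1 on no array, and for 4 leukocyte genes 0.508 to 0.562 and 0.888 to 1.45, with PTPRC and CD3E on no array, whereas the 10 epithelial genes summed to between 1474 and 2046. The part of these genes' sources in the results below was not tested. All arrays were on 1 slide, mock in the first row and TSA in the second, so that TSA and slide row cannot be told apart. In both rows siCONT stood in columns 1 and 2, siUHRF1-1 in column 3 and siUHRF1-2 in column 4. The siRNA and the slide column cannot be told apart either. Fewer cells of a kind and less RNA per cell cannot be told apart in such bulk samples.

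**Figure D1:**
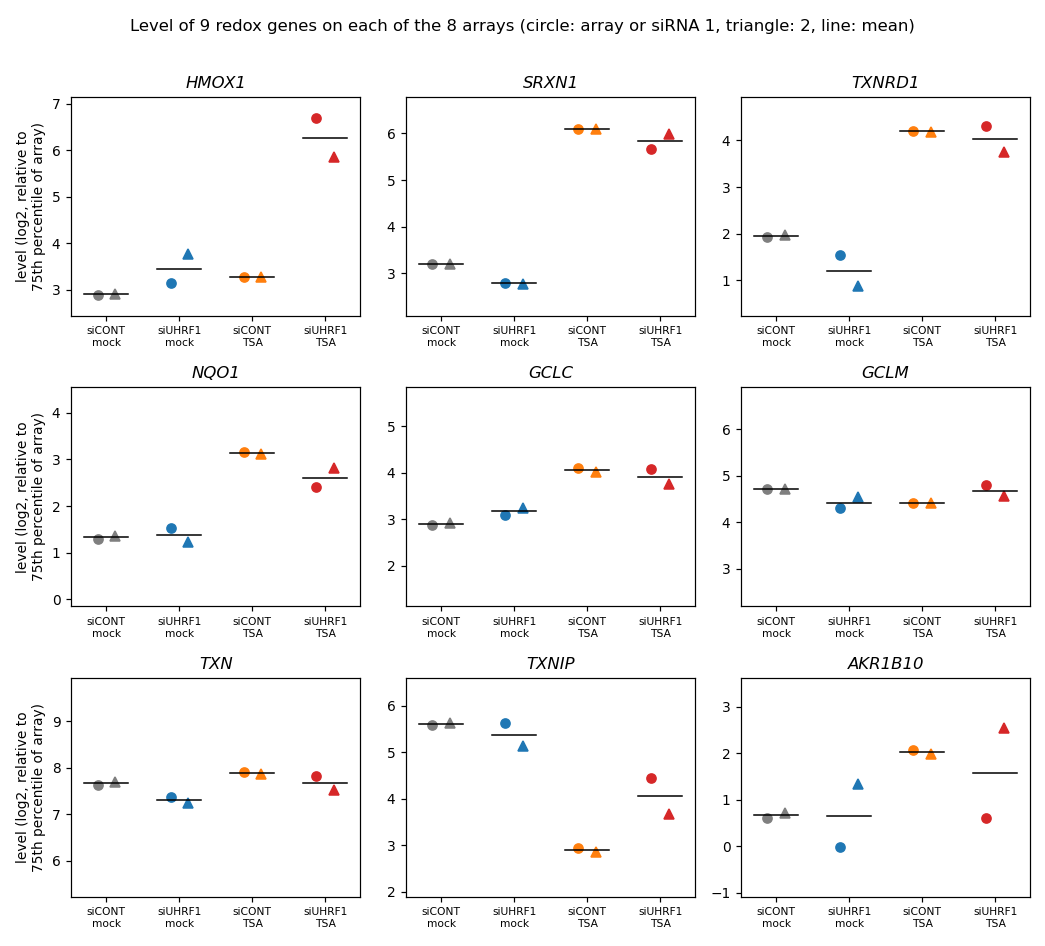
Level of each of the 9 genes (log2 of intensity over the array's 75th percentile, brightest probe) on every array by group, in panels of equal height. Circles are array 1 or siUHRF1-1, triangles array 2 or siUHRF1-2, and lines group means; HMOX1 stood apart only on the 2 arrays with both treatments (6.69 and 5.86), SRXN1, TXNRD1, NQO1 and GCLC were higher on all 4 TSA arrays, and TXNIP was lower there.

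HMOX1, the heme oxygenase that breaks down heme to biliverdin, iron and carbon monoxide, was high only where UHRF1 depletion and TSA were combined. Its level was 2.90 and 2.92 in siCONT with mock, 3.15 and 3.77 with siUHRF1-1 and siUHRF1-2 under mock, 3.28 and 3.28 in siCONT with TSA, and 6.69 and 5.86 with the siRNAs under TSA. Both combined arrays thus lay above the other 6, which stayed between 2.90 and 3.77. Neither treatment alone was called: the change was 0.54 (SE 0.31, adjusted p 0.284) for UHRF1 depletion and 0.37 (SE 0.31, adjusted p 0.379) for TSA. The combination raised HMOX1 by 3.36 against siCONT with mock (SE 0.31, adjusted p 0.000581), to a mean of 6.28 ± 0.59 (SD, n = 2 siRNAs). That is a change of 10.3-fold, and its adjusted p was 0.0142 in the averaged fit. Against siCONT under the same TSA the change was 2.99 (adjusted p 0.00511), and against the UHRF1-depleted cells with mock it was 2.82 (adjusted p 0.00136). In the averaged fit these 2 comparisons had an adjusted p of 0.0839 and 0.0105. The probe was spotted 10 times on the array, and the SD between its spots lay between 0.023 and 0.057 on the 8 arrays, a measure of spot noise only.

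SRXN1, TXNRD1 and TXNIP, 3 genes around thioredoxin, followed TSA. SRXN1, the sulfiredoxin that returns overoxidised peroxiredoxins to use, had a level of 3.19 on both siCONT arrays with mock and of 2.80 and 2.76 after UHRF1 depletion. It stood at 6.11 and 6.09 in siCONT with TSA and at 5.67 and 6.0 with both. The TSA arrays did not overlap with the mock arrays, and within each agent the level with UHRF1 depletion lay slightly below siCONT on both siRNAs. TSA raised SRXN1 by 2.91 in siCONT (SE 0.14, adjusted p 0.00026, or 0.0394 in the averaged fit), and by 3.05 in UHRF1-depleted cells (adjusted p 0.000115, or 0.00311). The combination was 2.64 above siCONT with mock (adjusted p 0.000134, or 0.0091). No other member was called in all 3 of these comparisons in both fits.

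TXNRD1, the cytosolic thioredoxin reductase, had levels of 1.93 and 1.97 in siCONT with mock and of 1.53 and 0.87 after depletion. With TSA it reached 4.20 and 4.19 in siCONT and 4.30 and 3.75 in depleted cells. The arrays again split by TSA without overlap, and the lowest level was that of siUHRF1-2 with mock. TSA raised TXNRD1 by 2.24 in siCONT (SE 0.27, adjusted p 0.00212, or 0.0927 in the averaged fit) and by 2.83 in depleted cells (adjusted p 0.000802, or 0.00771). The combination was 2.08 above siCONT with mock (adjusted p 0.00169, or 0.0323). UHRF1 depletion alone gave −0.75 (adjusted p 0.124), and −1.09 (adjusted p 0.0405) when the array of siUHRF1-1 with mock was left out, which was the only member call that appeared in this comparison under any alternative.

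TXNIP, the inhibitor of thioredoxin and an alpha-arrestin that restrains glucose uptake, went the other way. It was at 5.58 and 5.63 in siCONT with mock and at 5.63 and 5.12 after depletion, but at 2.94 and 2.85 in siCONT with TSA. With both treatments it stood at 4.44 and 3.67, between the siCONT arrays with TSA and the mock arrays. TSA changed TXNIP by −2.71 in siCONT (SE 0.28, adjusted p 0.00146, or 0.0745 in the averaged fit), a fall of 6.54-fold. The change in depleted cells was −1.32 (adjusted p 0.0131, or 0.0575), and that of the combination −1.55 (adjusted p 0.00612, or 0.0712). Under TSA, UHRF1 depletion raised TXNIP by 1.16 (SE 0.28, adjusted p 0.0405, or 0.342). This last call was lost when any siCONT array or siUHRF1-1 with TSA was left out (adjusted p 0.0828 to 0.189), with median scaling (0.80, adjusted p 0.105) and without the filter on dim probes (adjusted p 0.0962). The call in depleted cells was lost without siUHRF1-1 with mock (−1.07, adjusted p 0.0578) or without siUHRF1-2 with TSA, where the change of −0.94 was under 2-fold.

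TXN, thioredoxin itself, stayed within a narrow range, from 7.24 with siUHRF1-2 and mock to 7.91 in siCONT with TSA. Its levels were 7.64 and 7.69, 7.36 and 7.24, 7.91 and 7.87, and 7.82 and 7.52 in the 4 groups in the order above. No comparison of TXN was called, and the combination gave 0.01 (95% interval −0.33 to 0.34, adjusted p 0.971), or −0.39 with median scaling. The largest difference between its group means was 0.59, between siCONT with TSA and depletion with mock.

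GCLC and GCLM encode the catalytic and the modifier subunit of glutamate-cysteine ligase, the first enzyme of glutathione synthesis, and the signals of their probes did not move alike. GCLC was at 2.87 and 2.93 in siCONT with mock, 3.102 and 3.25 after depletion, 4.09 and 4.02 in siCONT with TSA, and 4.08 and 3.75 with both. All TSA arrays lay above all mock arrays. TSA raised GCLC by 1.16 in siCONT (SE 0.15, adjusted p 0.00258, or 0.151 in the averaged fit), and the combination by 1.01 (SE 0.15, adjusted p 0.00264, or 0.075). The second call sat at the 2-fold limit and was lost without the first siCONT array with mock (0.98), without siUHRF1-1 with TSA (0.85) and with median scaling (0.61). In depleted cells the GCLC difference with TSA was 0.74 (adjusted p 0.0102), which was under 2-fold and so not called.

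GCLM was at 4.72 on both siCONT arrays with mock, 4.31 and 4.54 after depletion, 4.41 and 4.41 in siCONT with TSA, and 4.79 and 4.56 with both. All arrays lay between 4.31 and 4.79, and no comparison was called. TSA in siCONT gave −0.31 (95% interval −0.65 to 0.03, adjusted p 0.125), so that a rise of the size seen for GCLC lay outside the interval of this probe's signal. As that probe shared a run of 18 bases with 6 others, its signal may hold other RNA. A change of GCLM RNA itself is uncertain in this respect. The combination gave −0.04 (95% interval −0.38 to 0.30), or 0.25 with quantile normalization and 0.20 with the 75th percentile taken over detected probes.

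NQO1, the quinone reductase widely used as a readout of NRF2, had levels of 1.29 and 1.36 in siCONT with mock, 1.52 and 1.24 after depletion, 3.16 and 3.11 in siCONT with TSA and 2.40 and 2.82 with both. Mock and TSA arrays did not overlap, and under TSA both siRNAs lay below siCONT. TSA raised NQO1 by 1.81 in siCONT (SE 0.18, adjusted p 0.00125, or 0.0863 in the averaged fit) and by 1.23 in depleted cells (adjusted p 0.00336, or 0.0321). The combination was 1.28 above siCONT with mock (adjusted p 0.00226, or 0.0543), and 0.88 with median scaling, which was under 2-fold, as was the change in depleted cells with that scaling (0.84). The difference between depleted and siCONT cells under TSA, −0.52, was not called (adjusted p 0.0946).

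**Figure D2:**
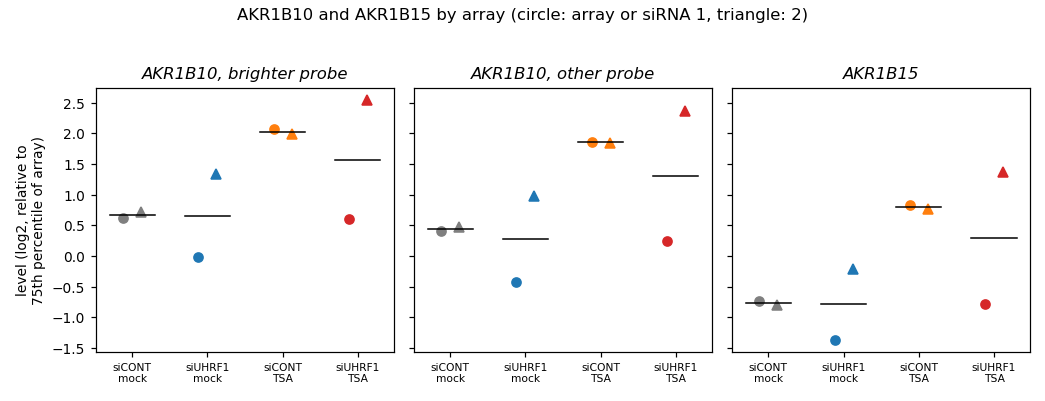
Levels (log2 of intensity over the array's 75th percentile) on every array for both AKR1B10 probes and the probe of its neighbour AKR1B15, on a shared axis, with group means as lines. In each panel siUHRF1-2 (triangle) lay above siUHRF1-1 (circle) under mock and under TSA, on either side of the siCONT arrays.

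AKR1B10, an aldo-keto reductase that reduces aldehydes and retinal, differed between the siRNAs and between the agents. Its level with TSA lay above that with mock by 0.61 with siUHRF1-1, 1.21 with siUHRF1-2 and 1.36 in siCONT. Its brighter probe was at 0.61 and 0.72 in siCONT with mock, −0.01 with siUHRF1-1 and 1.33 with siUHRF1-2 under mock, 2.07 and 1.98 in siCONT with TSA, and 0.60 with siUHRF1-1 and 2.54 with siUHRF1-2 under TSA. siUHRF1-2 exceeded siUHRF1-1 by 1.35 under mock and by 1.95 under TSA, and by 1.41 and 2.11 on the other AKR1B10 probe. Of 19900 probes well above background on all arrays, 1.57% and 0.251% had a difference between siRNAs as large as that of the brighter probe under mock and under TSA. No other member reached this: the next largest differences, siUHRF1-2 minus siUHRF1-1, were −0.67 under mock (TXNRD1) and −0.83 under TSA (HMOX1), in both of which siUHRF1-1 and siUHRF1-2 lay on the same side of siCONT. With 1 array per siRNA and agent, a difference between siRNAs has no replicate check. No comparison of AKR1B10 was called, TSA in siCONT giving 1.36 (SE 0.68, 95% interval −0.30 to 3.02, adjusted p 0.156), and leaving out siUHRF1-1 with TSA brought the combination to 1.88 (adjusted p 0.0499). AKR1B15, a closely related gene next to it on chromosome 7 (probe at 134262468 to 134262527), had levels of −0.73 and −0.79, −1.36 and −0.21, 0.84 and 0.76, and −0.78 and 1.37 in the same order. Its probe shared no run of 18 bases with those of AKR1B10. Whether the probes bind RNA of the other gene was not tested, so the AKR1B10 signal is uncertain in this respect.

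**Figure D3:**
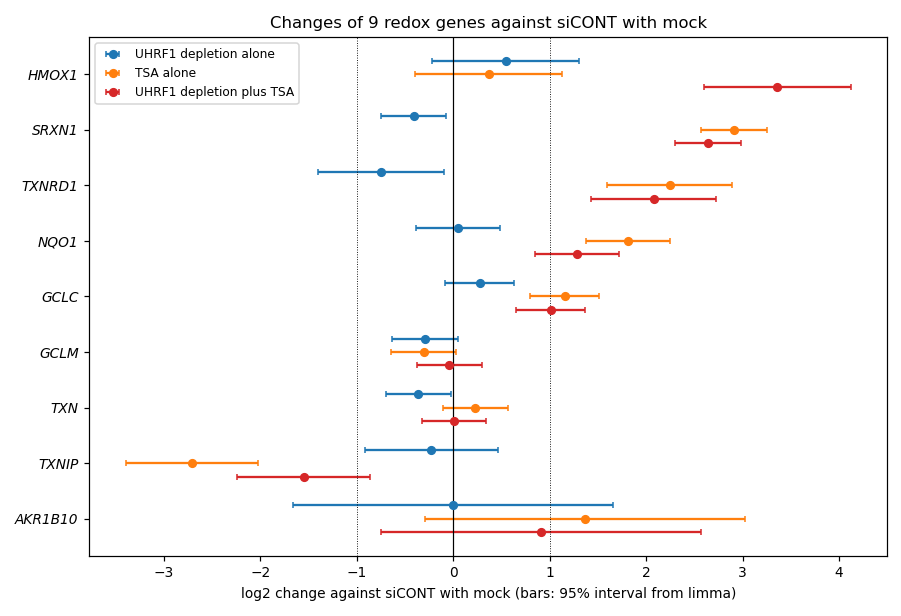
Log2 change of each member against siCONT with mock (x axis) for UHRF1 depletion alone, TSA alone and both, with 95% intervals from limma; dotted lines mark 2-fold. HMOX1 passed 2-fold only with both treatments (3.36), SRXN1, TXNRD1, NQO1 and GCLC passed with TSA with or without depletion, and TXNIP fell with TSA.

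The calls were then counted by comparison, each beside the share of all probes called. A probe was called at a limma adjusted p under 0.05 with a change of at least 2-fold. After UHRF1 depletion under mock, 0 of the 9 genes were called, against 4.12% of all probes (3.13% higher, 0.987% lower). At an unadjusted limma p under 0.05 there were 3 (TXNRD1, TXN and SRXN1, all lower and under 2-fold), and the methods' t-test called 0, adjusted or not. With TSA in siCONT, 4 genes rose, against 10.4% of all probes that did, and 1 fell, against 8.22%, for 18.6% called in all. For the combination against siCONT with mock, 5 rose (14.5% of all probes) and 1 fell (11.1%), for 25.6% called in all. UHRF1 depletion under TSA called 2 members, both higher (5.39% of all probes, of 8.27% called in all). TSA in depleted cells called 4 higher (11.7%) and 1 lower (9.01%), for 20.7% in all. The averaged fit called 0 members after UHRF1 depletion under mock, where it called 0.0223% of all probes, and 0 at an unadjusted p under 0.05. It called 1 higher for TSA in siCONT (1.26% of all probes higher, 0.297% lower, 1.56% in all) and 3 higher for the combination (9.74% higher, 5.68% lower, 15.4% in all). For UHRF1 depletion under TSA it called 0 members (0.675% of probes higher, 0.0168% lower, 0.692% in all), with 2 at an unadjusted p under 0.05. For TSA in depleted cells it called 4, all higher (10.1% higher, 7.56% lower, 17.6% in all). Comparisons that share a control group are not independent of each other. The median change of the 9 genes was 1.16 with TSA in siCONT and 1.01 with the combination, where the medians over all probes tested were −0.11 and −0.14. It was −0.23 after UHRF1 depletion with mock, against −0.10.

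**Figure D4:**
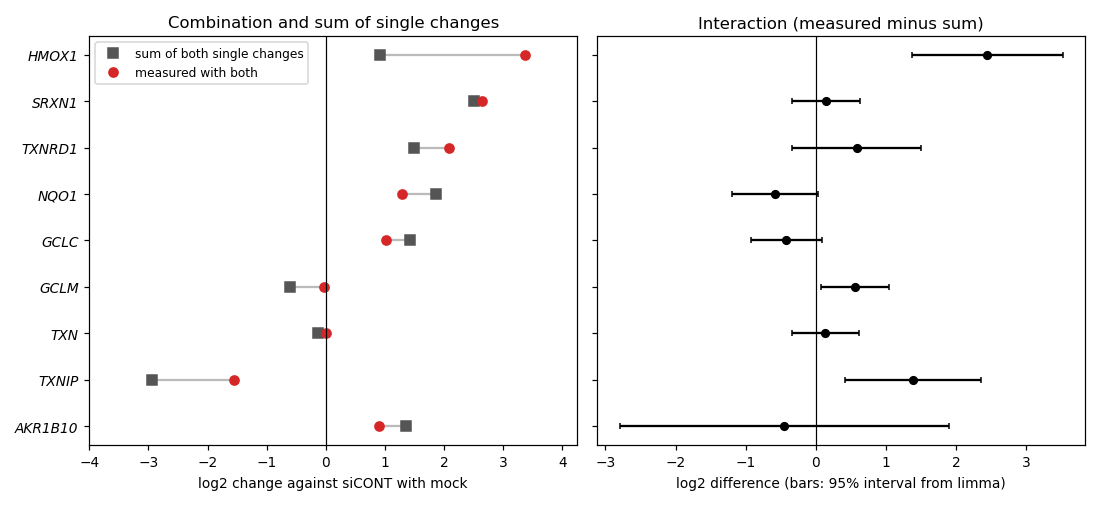
Left, the log2 change with both treatments (circles) beside the sum of the changes with either alone (squares), against siCONT with mock; right, their difference (the interaction) with its 95% interval from limma. HMOX1 lay 2.45 above the sum and TXNIP 1.39 above it, and the other members lay between −0.58 and 0.58 of it.

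Whether the effects of UHRF1 depletion and TSA added up was tested with the interaction, that is, how much larger the log2 change by depletion was in TSA-treated than in mock-treated cells. HMOX1 was the one member called (2.45, SE 0.44, 95% interval 1.37 to 3.53, adjusted p 0.0367), against 4.89% of all probes (2.83% higher, 2.07% lower). The single changes of HMOX1 summed to 0.91 and the measured change was 3.36. In the averaged fit the adjusted p was 0.435 and no probe of the array was called, while 1 member, HMOX1, had an unadjusted p under 0.05. The call was lost under other settings too, among them when any siCONT array was left out (2.44 to 2.46, adjusted p 0.125 to 0.137), without siUHRF1-1 with TSA (2.03, adjusted p 0.0525) and without the filter on dim probes (adjusted p 0.088). For TXNIP the interaction was 1.39 (SE 0.40, adjusted p 0.0923), and it was called only when siUHRF1-2 with TSA was left out (1.77, adjusted p 0.0416). The remaining members had interactions between −0.58 (NQO1) and 0.58 (TXNRD1), with adjusted p between 0.133 and 0.783. The interval was widest for AKR1B10, from −2.80 to 1.90, in a fit that did not tie arrays of the same siRNA to each other. Within an siRNA, the AKR1B10 level with TSA minus that with mock was 0.61 (siUHRF1-1) and 1.21 (siUHRF1-2), against 1.36 in siCONT.

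**Figure D5:**
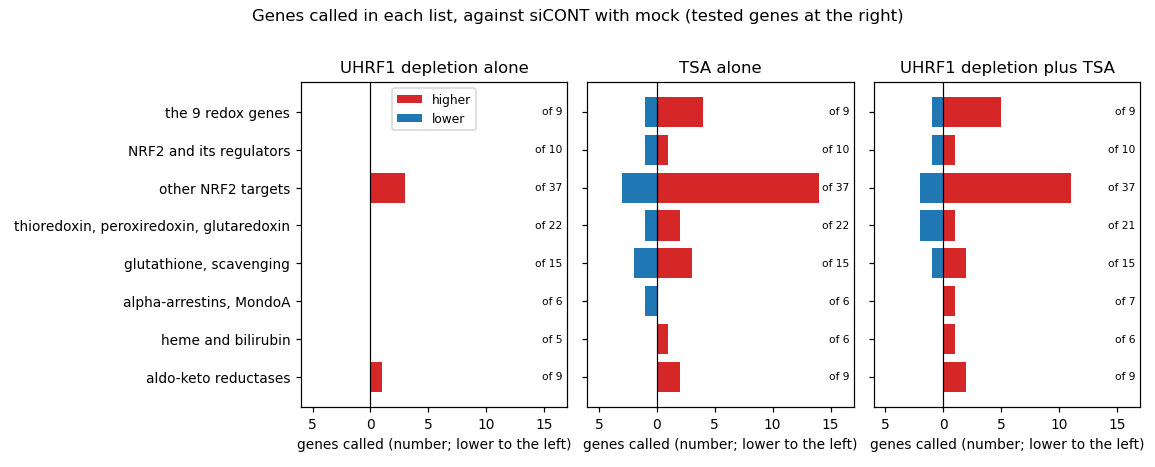
Number of genes called higher (right of 0) and lower (left of 0) in each list, for UHRF1 depletion alone, TSA alone and both, against siCONT with mock; the number of genes tested stands at the right of each bar. Other NRF2 targets gave the most calls, 14 higher and 3 lower of 37 with TSA alone, where 10.4% of all probes were higher and 8.22% lower.

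The other genes of the pathway were taken from lists of 110 genes, of which 108 were on the array. With TSA in siCONT, 21 of 100 tested were higher and 8 lower, where 10.4% and 8.22% of all probes were. With the combination they were 17 and 6 of 100, against 14.5% and 11.1% of all probes. After UHRF1 depletion alone they were 3 and 0 of 99, against 3.13% and 0.987%, and with TSA in depleted cells 17 and 5 of 101, against 11.7% and 9.01%. In the averaged fit the numbers were 3 and 0, 13 and 4, 0 and 0, and 16 and 5. That fit called 1.26% and 0.297%, 9.74% and 5.68%, 0.0223% and 0%, and 10.1% and 7.56% of all probes.

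Of the 10 regulators tested, 1 was higher and 1 lower with TSA in siCONT and with the combination, and 0 were called after UHRF1 depletion alone. Of all probes, 10.4% were higher and 8.22% lower with TSA in siCONT, and 14.5% and 11.1% with the combination. After depletion alone 4.12% of all probes were called. NFE2L2, which encodes NRF2, was not well above background with its only probe on any array, and neither was BACH2. Whether NFE2L2 RNA was low or its probe failed to report it was not tested. KEAP1 was between 3.01 and 3.89 on all arrays, with a difference of 0.85 for TSA in siCONT (adjusted p 0.0069), which was under 2-fold and so not called. SQSTM1, an adaptor that draws KEAP1 away from NRF2, rose by 1.17 with TSA in siCONT (adjusted p 0.00714, or 0.199 in the averaged fit) and by 1.55 with the combination (adjusted p 0.00185, or 0.0422). NFE2L3 fell by 1.12 and 1.77 in the same comparisons (adjusted p 0.0456 and 0.00796, or 0.354 and 0.0761). The 2 probes of BACH1 disagreed in sign with the combination, −0.45 on the brighter (adjusted p 0.217) and 0.86 on the other (adjusted p 0.0161), neither being called. With TSA in siCONT they gave 0.98 (adjusted p 0.0322, not called) and 1.22 (adjusted p 0.00618, called). On its brighter probe BACH1 was at 2.11 and 2.16, 1.82 and 1.09, 3.11 and 3.11, and 1.92 and 1.45 in the 4 groups. Under TSA it was thus lower with both siRNAs than in siCONT, a change of −1.42 (adjusted p 0.0212, or 0.25), while its other probe gave −0.37 (adjusted p 0.252).

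Among 37 other NRF2 targets tested, 14 were higher and 3 lower with TSA in siCONT (10.4% and 8.22% of all probes), and 11 and 2 with the combination (14.5% and 11.1%). The averaged fit called 2 higher and 0 lower (1.26% and 0.297% of all probes in that fit), and 10 higher and 2 lower (9.74% and 5.68%). Their median change was 0.52 and 0.51 in these comparisons. ABCC2, an exporter of conjugated compounds, was at −3.19 and −3.14 in siCONT with mock and between −0.34 and 0.19 on the 4 TSA arrays, a rise of 3.31 with TSA in siCONT (adjusted p 0.000347, or 0.0419 in the averaged fit). UHRF1 depletion alone raised it by 1.63 (adjusted p 0.012, or 0.272). The other ABCC2 probe was well above background on no array, so these changes rest on 1 probe. FTL, the ferritin light chain that stores iron, rose by 2.13 with TSA (adjusted p 0.000304, or 0.0483) and was at 8.002 to 8.03 on all TSA arrays, with many near-identical copies in the genome that leave its signal uncertain. TRIM16L (2.36) and AKR1B1 (2.26) completed the 4 largest rises with TSA, and both calls were lost in the averaged fit (adjusted p 0.065 and 0.103). With the combination they were ABCC2 (3.05), GPX2 (2.67), an epithelial glutathione peroxidase, OSGIN1 (2.67) and AKR1B1 (2.23), with adjusted p between 0.000198 and 0.00306, or 0.0094 to 0.0388. Lower in both comparisons were ABCC3 (−1.86 and −2.63) and MGST1 (−1.22 and −1.53), a transporter and a glutathione transferase, with CBR3 (−1.28) lower with TSA alone. In the averaged fit the calls of ABCC3, MGST1 and CBR3 with TSA alone were lost (adjusted p 0.0981, 0.149 and 0.281). After UHRF1 depletion alone ABCC2, AKR1C1 (1.55) and ALDH3A1 (1.18) were higher, AKR1C1 being uncertain for its near-identical relatives. None of the 3 was called in the averaged fit, which called 0.0223% of all probes there.

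The remaining thioredoxin, peroxiredoxin and glutaredoxin genes had 2 of 22 higher and 1 lower with TSA in siCONT (18.6% of all probes called) and 1 of 21 higher and 2 lower with the combination (25.6%). The averaged fit called 0 of them in the first comparison (1.56% of all probes in that fit) and 1, lower, in the second (15.4%). SESN2, a stress-induced sestrin, was at −0.58 and −0.52, −0.32 and −0.59, 1.48 and 1.57, and −0.43 and −0.78 in the 4 groups. It was thus high only in siCONT with TSA (2.08, adjusted p 0.000659, or 0.065 in the averaged fit), with an interaction of −2.22 (adjusted p 0.0144, or 0.308). MSRA fell by 1.53 with TSA in siCONT (adjusted p 0.00182, or 0.11), and the other call there was SESN3, which was well above background on 3 arrays only and so is given without a fold. PRDX1, the abundant peroxiredoxin that SRXN1 repairs, rose by 1.02 with the combination (adjusted p 0.00195, or 0.068), while TXNRD3 fell by 1.24 (adjusted p 0.00101, or 0.0438) and MSRA fell by 1.22 (adjusted p 0.00238, or 0.0586). GLRX, a glutaredoxin, had an interaction of 1.89 (adjusted p 0.0123, or 0.329), with levels of 4.44 and 4.49, 3.91 and 3.71, 3.57 and 3.60, and 4.92 and 4.72.

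In the list of glutathione and oxidant-scavenging genes, 3 of 15 were higher and 2 lower with TSA in siCONT, against 10.4% and 8.22% of all probes. CHAC1, which degrades glutathione, rose by 3.02 and GPX3 by 2.25, with CHAC2 at 1.05, while OPLAH fell by 1.53 and GPX1 fell by 1.15 (adjusted p 0.000659 to 0.0192). None of these 5 was called in the averaged fit, which called 1.56% of all probes in this comparison. With the combination GPX3 rose by 3.23 (adjusted p 0.000191, or 0.00761) and SOD3 by 2.48 (adjusted p 0.00564, or 0.056), and OPLAH fell by 1.12 (adjusted p 0.000938, or 0.0497). Of the heme and bilirubin genes, which share the pathway of HMOX1, the iron exporter gene SLC40A1 was the one called, higher with TSA in siCONT and with the combination, at adjusted p of 0.000494 and 0.00014. It was well above background on the 4 TSA arrays only, so no fold is given. ALAS1, the first enzyme of heme synthesis, was between 2.12 and 2.67 on all arrays and not called. Among the relatives and regulators of TXNIP, the alpha-arrestin gene ARRDC4 was at 1.75 and 1.65, 1.36 and 0.89, 0.43 and 0.45, and 1.28 and 1.51. Like TXNIP it fell with TSA in siCONT (−1.26, adjusted p 0.00401, or 0.158), and its interaction of 1.53 was called (adjusted p 0.0333, or 0.47). MLXIP, which encodes MondoA, an activator of TXNIP, had an interaction of −1.48 (adjusted p 0.0365, or 0.481) on its brighter probe and of 1.29 (adjusted p 0.127) on its other probe, so that its probes disagreed in sign.

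In UHRF1-depleted cells, TSA called 17 of the 101 list genes higher and 5 lower, against 11.7% and 9.01% of all probes. The other NRF2 targets tested here numbered 37. Of the other NRF2 targets, 9 were higher and 2 lower, led by OSGIN1 (3.61), FTL (2.56), TRIM16L (2.30) and AKR1B1 (1.96), with ABCC3 (−2.83) and MGST1 (−1.81) lower, at adjusted p between 0.000102 and 0.00374, or 0.00365 to 0.0232 in the averaged fit. SQSTM1 rose by 1.40 (adjusted p 0.00341, or 0.0286) and GSR, the glutathione reductase, by 1.20 (adjusted p 0.00422, or 0.0365), while GPX3 rose by 2.36 and OPLAH fell by 1.81. PRDX1 (1.25), NXN (1.04) and GLRX (1.01) were higher and MSRA (−1.60) lower among the thioredoxin and peroxiredoxin genes. MLXIPL, a sister gene of MLXIP, rose by 1.38 in this comparison (adjusted p 0.00514, or 0.0348) and by 1.36 with the combination (adjusted p 0.00439, or 0.0674), and MLXIP fell by 1.70, its other probe giving −0.26. SLC40A1 was called here too. Among the aldo-keto reductases, AKR1B1 and AKR1C1, both also counted among the other NRF2 targets, were the genes called, AKR1C1 rising by 1.06 with TSA in siCONT (adjusted p 0.048, or 0.362 in the averaged fit) and by 2.11 with the combination (adjusted p 0.0037, or 0.0472).

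Under TSA, UHRF1 depletion called 2 of the 101 list genes higher and 4 lower, none of them in the averaged fit. Of all probes, 5.39% were higher and 2.87% lower in this comparison, and 0.692% were called in the averaged fit. GLRX (1.24) and SOD3 (1.68) were the 2 list genes higher. BACH1, SLC3A2 (−1.20), SESN2 (−2.13) and CHAC1 (−2.06) were lower, SLC3A2 being a chain of the cystine importer that feeds glutathione synthesis. CHAC1 was at 5.18 and 5.19 in siCONT with TSA and at 3.59 and 2.66 with both treatments, and at 1.40 to 2.38 on the mock arrays. The interaction called 2 of 102 list genes higher, GLRX and ARRDC4, and 5 lower, against 2.83% and 2.07% of all probes. Besides SESN2 and MLXIP these were ABCC2 (−1.89), ALDH3A1 (−1.60) and SLC3A2 (−1.35), at adjusted p of 0.0256 to 0.0473, or 0.420 to 0.529. ABCC2 and ALDH3A1, an aldehyde dehydrogenase, had been raised by depletion and by TSA alone, and their levels with both (−0.34 and 0.12 for ABCC2, 3.30 and 2.98 for ALDH3A1) lay near or below those with TSA alone (0.19 and 0.10, and 3.55 and 3.57).

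The genes most like the 3 members with the widest range of group means were sought by the root mean square (RMS) difference between centred log2 profiles over the 8 arrays, among 16834 probes. Nearest to HMOX1 were EXOC3L4, NCCRP1 and PHOSPHO1, with RMS differences of 0.34 to 0.42. EXOC3L4 had group means of −2.74, −2.38, −2.46 and 0.11, and so was high with both treatments only. Nearest to SRXN1 were PPP1R14C, CLU and FLNA (0.18 to 0.25), and nearest to TXNRD1 were ULBP2, CCNYL1 and SCHIP1 (0.12 to 0.19). The nearest probe to HMOX1 was thus further from it than the third nearest was from SRXN1 or TXNRD1. These likenesses are over 8 arrays in 4 groups and are given as a description.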

How the data were processed

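Total RNA of DLD1 cells was hybridised by the authors to one-colour (Cy3) Agilent human gene expression arrays, and the deposited intensity files came from Agilent Feature Extraction 10.7, which subtracted background and detrended within each array. From the processed signal, the log2 intensity minus each array's 75th percentile was computed over non-control probes, repeated spots being averaged. Groups came from the sample titles for siCONT and from the source names for siUHRF1. A comparison tested a probe if either of its groups had both arrays well above background, and 24591 probes were fitted. Group means were fitted with limma 3.58.1 (R 4.3.3) and adjusted by Benjamini-Hochberg; a call needed an adjusted p under 0.05 and 2-fold. Since each siCONT pair differed by little more than spot noise, a second fit averaged it to 1 sample. Nothing in the labels says whether arrays came from separate cultures, so p-values measure the spread between these samples, which may be technical, and the number of arrays limits precision.

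For a gene with several probes the brightest by mean level was used. Genes named are all members, in each list and comparison the called genes with the largest changes (at most 4 in each direction), and the 3 nearest profiles of the 3 members with the widest range; KEAP1, NFE2L2, BACH2, ALAS1 and AKR1B15 were added for their roles. The members and lists were chosen with earlier results of these data known. Probe positions are those of the array design (hg19); promoter sequences are RefSeq's (GRCh38.p14). Of 110 list genes, AKR1C2 and LUCAT1 were not found on the array by name. The method was tested on simulated data. The 21 alternatives covered scaling, background correction, the deposited value table, filters, the test, the replicate number as a block, and leaving out each array. The sequence of 1 probe is not reported here.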

Additional observations from a re-analysis of the deposited data

Results flagged for a closer look

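The effect of UHRF1 depletion on HMOX1 differed between agents: the log2 change was 0.54 with mock and 2.99 with TSA, a difference of 2.45 (SE 0.44, limma adjusted p 0.0367, or 0.435 in the averaged fit). Both siRNAs showed the direction, with changes from siCONT of 0.23 and 0.86 under mock and 3.41 and 2.58 under TSA.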

How the results depend on the processing

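None of the 19 member calls changed direction under the 19 alternatives that gave a log2 change for each gene. With the siCONT arrays averaged, 11 were lost: the members called went from 5 to 1 for TSA in siCONT, 6 to 3 for the combination, 2 to 0 for UHRF1 depletion under TSA, 5 to 4 for TSA in depleted cells and 1 to 0 for the interaction. By the methods' t-test with Benjamini-Hochberg adjustment they were 6 for TSA in siCONT (5 higher, 1 lower), AKR1B10 being added to the 5 of the main fit. That test called 3812 of all probes there. It called 1 member for the combination, 0 for TSA in depleted cells and 0 for UHRF1 depletion under TSA, which had 1 unadjusted. Median scaling left 4 for the combination and 4 for TSA in depleted cells. Both it and no filter on dim probes left 1 for UHRF1 depletion under TSA, and no filter left 0 for the interaction. Leaving out 1 array gave 0 to 1 members called for UHRF1 depletion with mock, 5 to 6 for the combination, 1 to 2 for UHRF1 depletion under TSA, 4 to 5 for TSA in depleted cells and 0 to 2 for the interaction. Same-numbered arrays deviated together only between the UHRF1 depletion groups (r = 0.337, others −0.06 to 0.07), where the number stands for the siRNA. Over all 4 groups the numbers were therefore not taken as pairs, and a pairing by siRNA within the depletion groups alone was not tested. With the number as a replicate block over all groups, siCONT included, the interaction called 0 members (HMOX1 adjusted p 0.0625). No other member call changed with that block. A slide block was not run, as there was 1 slide.

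Uncalled changes that turned direction were small or moved with 1 siRNA. For UHRF1 depletion with mock, AKR1B10 was 0.025 with quantile normalization, 0.073 with the percentile over detected probes and 0.058 with normexp, and −0.68 to 0.67 without 1 array; NQO1 was −0.091 to 0.20 and TXNIP −0.48 to 0.027 without 1 array. For the combination, GCLM was 0.25 with quantile normalization and 0.20 with detected probes, and TXN −0.39 with median scaling. Without 1 array, GCLM ranged over −0.15 to 0.076, TXN −0.14 to 0.15 and AKR1B10 −0.067 to 1.88. For UHRF1 depletion under TSA, GCLM was −0.086 with median scaling, and without 1 array GCLC ranged over −0.31 to 0.020, TXNRD1 −0.44 to 0.11 and AKR1B10 −1.43 to 0.52. For TSA in depleted cells, median scaling gave −0.14 (GCLM) and −0.021 (TXN), and AKR1B10 ranged over −0.061 to 1.89 without 1 array. For the interaction, TXN was −0.23 with quantile normalization and −0.20 with median scaling, and SRXN1 −0.20 with median scaling. Without 1 array, TXN ranged over −0.0059 to 0.29, SRXN1 −0.020 to 0.31 and AKR1B10 −1.42 to 0.52.

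Median scaling moved the median change of all probes in the combination from −0.14 to −0.54, with 2588 of 8202 calls higher against 3453 of 6078, and 4234 of 5878 with the percentile over detected probes. All probes called in the order of the comparisons above (UHRF1 depletion with mock, TSA in siCONT, the combination, UHRF1 depletion under TSA, TSA in depleted cells, the interaction) were 923, 4319, 6078, 1971, 4953 and 1203. With normexp they were 301, 1708, 2639, 744, 2361 and 775. In the averaged fit they were 5, 362, 3660, 165, 4211 and 0. Other counts over 1.5 times apart were, for UHRF1 depletion with mock, 406 without the filter, 1920 without the fold limit and 0 by the methods' t-test (adjusted); for TSA in siCONT, 9326 without the fold limit; for the combination, 3882 with only probes detected on all arrays, 11224 without the fold limit and 2714 by the methods' t-test (adjusted). For UHRF1 depletion under TSA they were 3002 with median scaling, 1093 with only probes detected on all arrays, 4170 without the fold limit and 0 by the methods' t-test (adjusted); for TSA in depleted cells, 3099, 9391 and 0 (3286 unadjusted); for the interaction, 213 without the filter and 675 with the block. Leaving out 1 array gave 209 to 2147 for UHRF1 depletion with mock, 656 to 2295 for it under TSA and 136 to 2892 for the interaction. The cause of these moves was not tested.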
